A study of Mus musculus with 12 samples.

Results

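Livers of male C57BL/6 mice differed in their levels of clock genes. In 4 of 12 arrays the output gene Dbp, Per2 and Per3 stood high and Arntl low. In 6 arrays the reverse held, and 2 lay between. These clock states were defined here by a score on the arrays' own values, described below, which includes these same genes. They are not groups of the study. The series measured liver RNA of 12 mice on Affymetrix expression arrays, 1 array per mouse, in a study of how low-dose antibiotics affect gut bacteria and body fat of young animals. Of the mice, 6 drank water with low-dose penicillin after weaning and 6 controls had no antibiotic. All were kept under a cycle of 12 h light and 12 h dark with free access to food and water, and the livers were removed 7 weeks into the intervention. The sources used here do not give the dose, the ages or the hour of collection.

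The liver clock is a feedback loop of transcription. The activators Arntl (also called Bmal1), Clock and Npas2 bind E-box sequences and switch on the repressors Per and Cry, the receptors Nr1d1 and Nr1d2 (the REV-ERBs), and output factors such as Dbp, Tef and Hlf. Nr1d1 and Nr1d2 repress Arntl, Clock, Npas2 and Nfil3 through another sequence, the RORE, while Dbp, Tef and Hlf activate and Nfil3 represses genes that carry a D-box. In the liver of mice fed at will, Dbp and the Per genes are known to peak late in the light phase or at its end, and Arntl around the turn from night to day.

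The clock score was the mean of Dbp, Tef, Per2, Per3, Ciart and Usp2 minus the mean of Arntl, Npas2, Clock and Nfil3, each gene being centred on its mean over the 12 arrays in log2 intensity. Arrays above 1.5 were called Dbp-high and arrays below -1 Dbp-low. The high side held control 6 (2.55), penicillin 1 (2.76), penicillin 5 (2.19) and penicillin 6 (2.57). The low side held control 2 (-2.44), control 4 (-2.54), control 5 (-1.47), penicillin 2 (-1.21), penicillin 3 (-1.15) and penicillin 4 (-2.18). Control 1 (0.41) and control 3 (0.51) lay between and were left out. Nearest to the limits inside were penicillin 5 and penicillin 3. The high side therefore held 1 control and 3 penicillin livers, and the low side 3 of each.

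**Figure D1:**
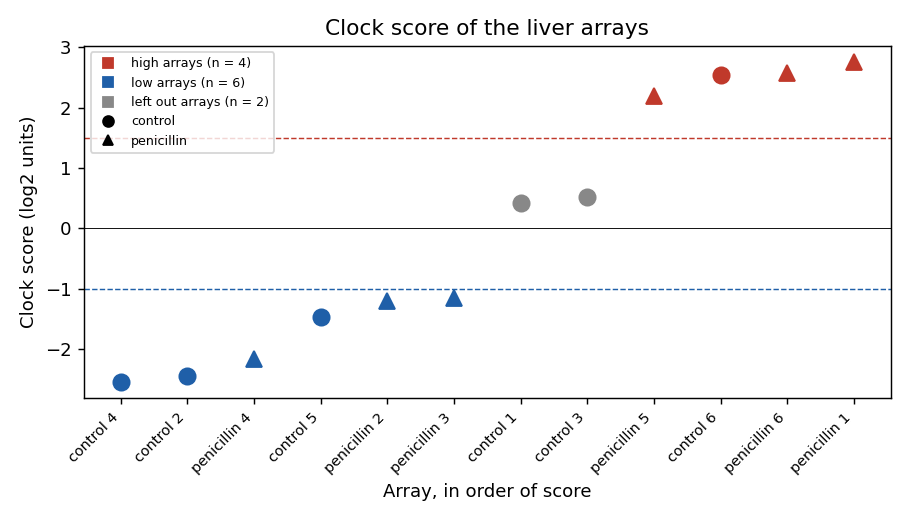
Clock score of each of the 12 arrays in log2 units, arrays in order of score, with colour for the side and shape for the treatment; dashed lines mark the limits of 1.5 and -1. The 4 high arrays sit between 2.19 and 2.76, the 6 low arrays between -2.54 and -1.15, and control 1 and control 3 lie alone between them.

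The genes of the score are given as a description, since they chose the arrays. Dbp, a transcription factor of the PAR bZIP family, stood at 11.96 in control 6, 11.96 in penicillin 1, 12.05 in penicillin 5 and 12.05 in penicillin 6, in log2 intensity, and at 6.44 to 9.01 in the low arrays (median 7.99). It was nearly level within the high side and spread widely within the low side. Arntl, the central activator, stood at 4.55, 5.32, 5.44 and 5.01 in the same order of high arrays and at 7.90 to 8.64 in the low arrays (median 8.31). With treatment held fixed, the difference between the sides was 14.3-fold for Dbp, 8.44-fold for the ubiquitin protease Usp2, 5.70-fold for Ciart, a repressor of the loop, and 4.67-fold for Per3. It was 3.01-fold for Tef and 2.86-fold for Per2. On the lower side it was 9.49-fold for Arntl, 2.83-fold for Npas2, 2.51-fold for Nfil3 and 2.11-fold for Clock. Nfil3 was the 1 score gene whose sides overlapped: control 6 stood at 8.66, the other high arrays at 7.29 to 7.53, and the lowest low array at 8.64. Npas2 in the high arrays (3.93 to 4.19) lay under the level of 4.73 used here as the limit for dim probesets, and the files hold no detection calls that would tell it from background.

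All other comparisons of the sides are also given without p-values. The arrays were grouped by their own values, and genes that vary along with the score genes will tend to separate them for that reason alone. Differences are log2 differences, high minus low, with treatment as a covariate and limma's moderated standard error (SE) as the measure of their precision. A gene was called where the difference was at least 1.5-fold and all arrays of one side lay above all arrays of the other. Outside the score, 75 of 11889 genes were called higher in the high arrays (0.631%) and 96 lower (0.807%). Of the called genes, 23 higher and 33 lower differed by at least 2-fold. The sides did not overlap, at any fold, for 335 genes that were higher (2.82%) and 403 that were lower (3.39%). Over all genes the median difference was 0.0027, and the median absolute difference of 0.092 was close to the median SE of 0.090.

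Among clock genes outside the score, Nr1d2, Cry2 and Bhlhe40 were called higher in the Dbp-high arrays. The receptor gene Nr1d2 stood at 10.97 in control 6, 11.08 in penicillin 1, 11.16 in penicillin 5 and 11.05 in penicillin 6, and at 9.70 to 10.12 in the low arrays (median 9.86), a difference of 1.17 (SE 0.09). The sides did not overlap, and the left-out arrays lay between them at 10.42 and 10.49. Cry2, a repressor of Clock and Arntl, stood at 8.01, 7.86, 7.84 and 7.73 in the high arrays and at 6.94 to 7.32 in the low arrays (median 7.27), 1.59-fold apart. For Cry2 the left-out arrays, at 7.11 and 7.18, lay with the low side. Bhlhe40, a repressor that competes for E-boxes, was 1.62-fold higher, at 10.40 to 11.04 against 9.40 to 10.32.

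Further clock genes missed the call or did not separate. Per1, a repressor that also responds quickly to stress hormones and other signals, was higher by 0.99 (SE 0.22) but overlapped, because control 5 of the low side reached 8.13 while penicillin 5 of the high side stood at 8.03. Per1 was highest in the left-out control 1 (8.97) and control 3 (8.96), above all high arrays (8.03 to 8.69). Hlf, the third PAR bZIP factor, separated without overlap at 8.10 to 8.20 against 7.26 to 7.80, yet its difference of 0.53 (SE 0.09) stayed under 1.5-fold. Nr1d1 stood at 6.25 to 6.97 in the high arrays and 6.05 to 6.92 in the low arrays, with a difference of 0.11 (SE 0.20), and was highest in the left-out arrays at 7.16 and 7.04. Cry1, the repressor that peaks latest in the loop, stood at 5.15 to 5.84 against 5.25 to 6.85 (difference -0.31, SE 0.23). The RORE activator Rora (-0.18), Timeless (0.21) and Tipin (-0.08) overlapped between the sides. Without control 6, Rora was at -0.072 and Timeless at 0.0050. Other Rora probesets ran from -0.36 to 0.031 between the means of the sides, without the treatment covariate, so its value depends on the probeset chosen. In all, 3 of 9 clock genes outside the score were called higher and 0 lower, beside 0.631% and 0.807% of all genes outside it. The score was built from genes tied to the same loop, so these calls are no separate support.

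**Figure D2:**
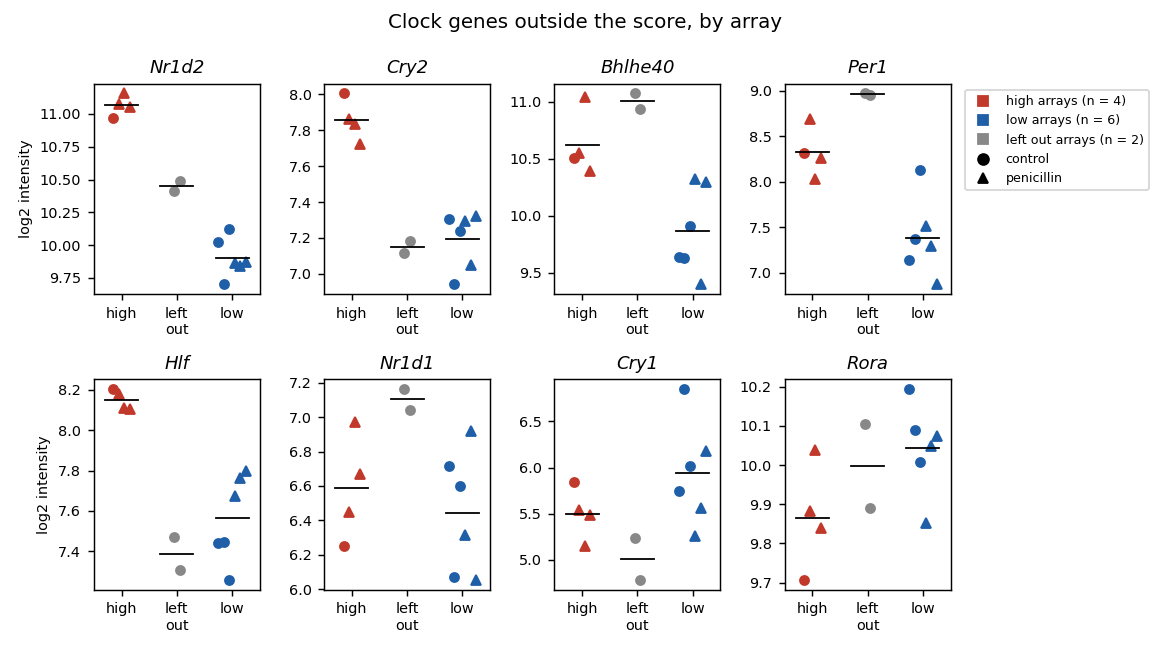
Log2 intensity of 8 clock genes outside the score in each array, by side, with shape for the treatment and a line at the mean of each side. Nr1d2, Cry2, Bhlhe40 and Hlf separate the 4 high from the 6 low arrays, Per1 overlaps through control 5, and Nr1d1, Cry1 and Rora overlap widely.

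The called genes were searched for the 3 clock motifs in RefSeq promoter windows (GRCm38.p6), which run from 250 bases before to 50 after a start. The search read both strands for the E-box CACGTG, the D-box as TTATGTAA or TTACGTAA, and the RORE. Of 75 genes called higher, 59 had a window, and 3 of these held a D-box (5.08%), beside 85 of the 9596 genes tested outside the score that had one (0.886%). Of 96 genes called lower, 72 had a window, and 4 held a RORE (5.56%), beside 61 of 9596 (0.636%). No gene called higher held a RORE and no gene called lower a D-box (0 of 59 and 0 of 72). With shares this low over all genes, groups of this size can easily hold none, so nothing is read from these zeros. The D-box and RORE shares of the called genes rest on only 3 and 4 genes. These genes were called on a contrast that clock genes defined, so the shares are a description and no separate support. E-boxes were found in 9 of 59 (15.3%) and 9 of 72 (12.5%), beside 1128 of 9596 (11.8%). Over all 32851 windows of that length, 7.15% held an E-box, 1.06% a D-box and 0.773% a RORE. The shares over genes and over windows are not the same quantity, since a gene can have several windows. A match is a description of letters and not a site of binding.

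The stretches below are the D-boxes of genes called higher and the ROREs of genes called lower that lie wholly before a start. The E-box of Coq10b is shown beside its D-box as an example, since all 3 D-box genes also held an E-box in a window. Each is written 5′ to 3′ on the strand of the gene with the motif in capitals. They are chr1:55052588-55052635 (plus strand) and chr1:55052672-55052717 (plus) for Coq10b, chr4:101419253-101419300 (plus) for Ak4, and chr19:34747377-34747424 (minus) for Slc16a12. Those of the genes called lower are chr9:75441438-75441487 (plus) for Leo1, chr10:81291763-81291812 (minus) for Tjp3 and chr3:36862884-36862933 (plus) for 4932438A13Rik.
Coq10b D-box: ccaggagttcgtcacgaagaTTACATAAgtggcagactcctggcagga
Coq10b E-box: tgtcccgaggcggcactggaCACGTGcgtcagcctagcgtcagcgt
Ak4 D-box: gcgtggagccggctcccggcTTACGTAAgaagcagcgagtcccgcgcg
Slc16a12 D-box: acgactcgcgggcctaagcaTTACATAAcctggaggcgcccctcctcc
Leo1 RORE: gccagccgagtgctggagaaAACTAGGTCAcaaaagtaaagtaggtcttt
Tjp3 RORE: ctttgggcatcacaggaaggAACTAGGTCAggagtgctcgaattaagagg
4932438A13Rik RORE: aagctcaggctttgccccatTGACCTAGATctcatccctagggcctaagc

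The genes that carry these motifs differed as follows. Coq10b, a mitochondrial coenzyme Q binding protein, stood at 10.53, 10.85, 10.05 and 10.51 in control 6, penicillin 1, penicillin 5 and penicillin 6 and at 8.27 to 9.19 in the low arrays (median 8.72), 3.28-fold higher. Ak4, a mitochondrial adenylate kinase, was higher by 0.98, and the transporter Slc16a12 by 0.80. Leo1, a subunit of the PAF1 complex of transcription elongation, stood within 6.72 to 6.77 in the high arrays and at 7.65 to 8.10 in the low arrays, 2.12-fold lower. Its 4 high arrays were closer together than those of any other gene described here. The tight junction protein gene Tjp3 was 2.94-fold lower, and 4932438A13Rik differed by -0.61. Ddc, which makes dopamine and serotonin from their precursors and was 2.80-fold lower, held its RORE after the start. The genes of these motifs other than Coq10b, Leo1, Tjp3 and Ddc were named after their values were seen.

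Of the genes called higher, the kinase Wee1 differed most. Wee1 holds cells before mitosis and is a known target of Clock and Arntl. It stood at 9.15 in control 6, 8.78 in penicillin 1, 9.07 in penicillin 5 and 8.77 in penicillin 6, and at 6.69 to 6.92 in the low arrays (median 6.79), a difference of 2.17 (SE 0.09), or 4.51-fold. The sides lay far apart, and the left-out arrays, at 7.02 and 7.18, were just above the low side. Rgs16, a brake on G protein signals, was 3.63-fold higher, at 8.96, 10.10, 9.52 and 8.19 against 6.55 to 7.91. Here the spread within the high side (SD 0.81, n = 4) was wide.

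Several of the other genes called higher encode enzymes. Alas1, the first and rate-limiting enzyme of heme synthesis, stood at 12.34 to 12.88 in the high arrays and at 9.27 to 12.16 in the low arrays (median 10.65), 3.07-fold higher (difference 1.62, SE 0.35). The gap between the sides was narrow, because penicillin 3 of the low side reached 12.16. Upp2, a liver uridine phosphorylase, was at 12.51, 12.57, 12.10 and 12.55 against 10.23 to 11.19, 2.97-fold higher. Nmrk1, a kinase that turns nicotinamide riboside into an NAD precursor, was 2.88-fold higher, at 8.65 to 9.05 against 6.79 to 7.79. Nampt, the rate-limiting enzyme of NAD salvage and a known target of Clock and Arntl, stood at 9.80, 9.60, 9.32 and 9.55 in the high arrays and at 8.39 to 8.68 in the low arrays (median 8.57), 2.02-fold higher.

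Among the remaining genes called higher, Mfsd2a, a transporter of lysophosphatidylcholine, was 3.18-fold higher and Gpcpd1, which splits glycerophosphocholine, 3.12-fold. The proprotein convertase Pcsk4 was 2.92-fold higher, at 7.84 to 8.41 against 6.49 to 6.74. The secreted growth factor Nrg4 was 2.79-fold higher, Lonrf1 2.84-fold, Nrep 2.66-fold and A930033H14Rik 3.19-fold. Of genes tied to DNA damage, Dclre1a, a nuclease that repairs crosslinks, was 2.47-fold higher and Gadd45a 2.32-fold. With the mean over probesets the log2 differences of Dclre1a and A930033H14Rik were smaller, at 0.81 and 1.07, against 1.31 and 1.68 with the probeset chosen. Gadd45a reached 9.02 and 9.01 in the left-out arrays, far above all high arrays (6.37 to 7.63).

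Among the genes called lower, the tubulin gene Tubb2a and the fatty acid elongase gene Elovl3 differed most. Tubb2a stood at 8.16 in control 6, 8.66 in penicillin 1, 9.47 in penicillin 5 and 8.49 in penicillin 6, and at 11.17 to 11.78 in the low arrays (median 11.35), 6.56-fold lower (difference -2.71, SE 0.23). Elovl3, which lengthens very long fatty acids and is higher in livers of males, stood at 9.31, 10.80, 11.14 and 10.23 against 12.54 to 13.07 (median 12.81), 5.83-fold lower. Control 6 was the lowest array for both, and the left-out arrays lay between the sides. Chka, the first enzyme of phosphatidylcholine synthesis from choline, stood at 6.68, 6.19, 6.97 and 6.55 against 8.42 to 9.41 (median 9.11), 5.27-fold lower. For Chka the left-out arrays, at 9.55 and 9.48, were above all low arrays.

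Several of the other genes called lower act in fuel choice, sterol control and cell contacts. Pdk4, which keeps pyruvate out of the citric acid cycle in fasting, was 3.61-fold lower, at 5.17 to 6.00 against 6.50 to 7.85. Insig2, which holds the sterol-regulated SREBP factors in the endoplasmic reticulum, was 3.18-fold lower, at 9.51 to 10.83 against 11.31 to 11.90. Clpx, the unfoldase of a mitochondrial protease, was 3.51-fold lower, at 9.39 to 10.06 against 11.05 to 11.74. Claudin 1 (Cldn1), a tight junction protein, was 3.33-fold lower, at 8.12 to 9.23 against 9.86 to 10.71. Asap2, which acts on Arf GTPases, was 4.80-fold lower, the manganese exporter Slc30a10 3.12-fold, the adhesion protein gene Lrfn3 3.09-fold and the vasopressin receptor Avpr1a 2.77-fold. Denn2b was 2.80-fold and Abtb2 2.65-fold lower.

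**Figure D3:**
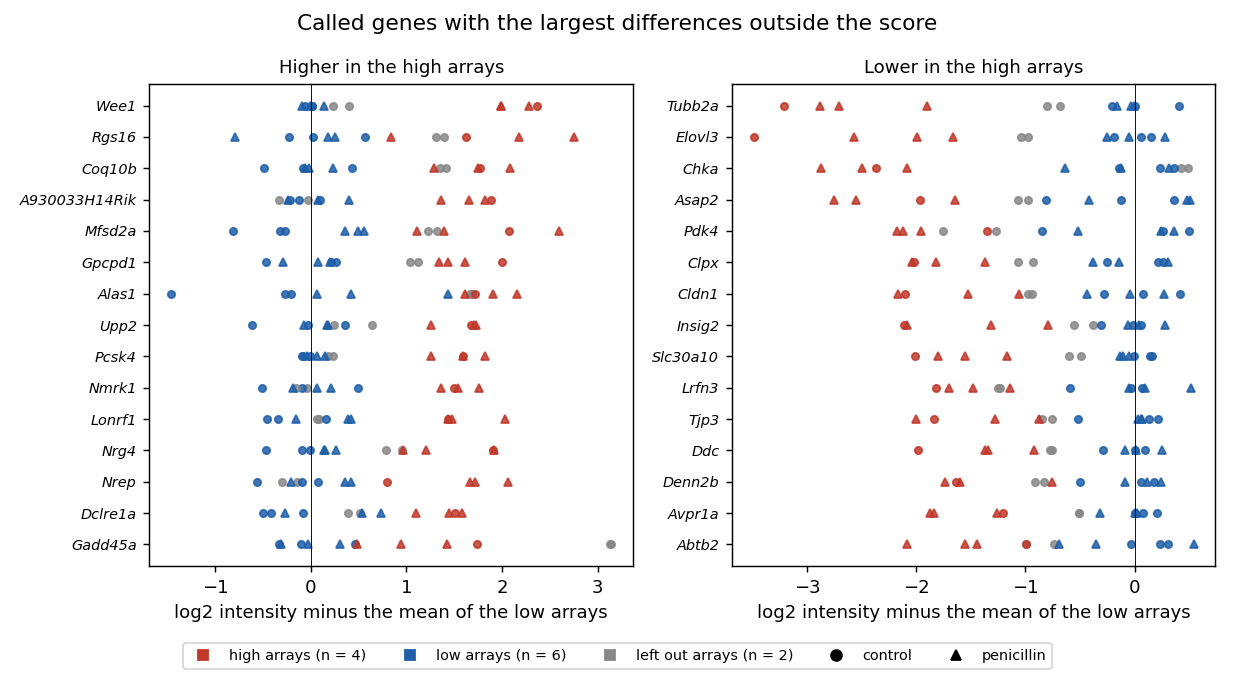
Log2 intensity minus the mean of the low arrays for the 15 genes called higher and the 15 called lower with the largest differences outside the score; each point is an array, colour gives the side and shape the treatment. High and low arrays do not overlap for any of these 30 genes, by the call rule, while control 1 and control 3 lie with the high side for Alas1, with the low side for Nrep and past either side for Gadd45a and Chka.

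Lists of genes were written for clock, metabolic, stress and other pathways of the liver, with earlier results of these data known. They are described by counts and medians beside those over all genes (1.44% called in either direction, median difference 0.0027). The call used the contrast that defined the sides, so nothing is read from these shares. Of 44 measured genes in a list of rhythmic liver genes beyond the core clock, 7 were called higher and 11 lower, with a median of 0.13. Besides Wee1, Rgs16, Coq10b, Mfsd2a, Tubb2a, Elovl3 and Insig2, these were the tetraspanin Tspan4 (1.00), Klf13 (0.87), the glycogen synthase Gys2 (0.79), the ubiquitin ligases Dtx4 (-1.20) and Nedd4l (-1.09), Slc45a3 (-1.09), Tars (-1.01), Atf5 (-0.82), Leap2 (-0.78), Pnp (-0.64) and Gramd4 (-0.62). Those beyond the 3 with the largest differences were named after their values were seen. Among 16 measured targets of the PAR bZIP factors in detoxification, 3 were called higher (Alas1, Upp2 and Cyp7a1) and 1 lower (Avpr1a). Their median of -0.0034 was close to that of all genes. Of 8 genes of the RORE-driven list outside the score, 1 was called lower, again Avpr1a, and 0 higher.

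Cyp7a1, which controls the first step from cholesterol to bile acids, stood at 11.54 in control 6, 11.14 in penicillin 1, 10.99 in penicillin 5 and 11.12 in penicillin 6, and at 9.82 to 10.80 in the low arrays (median 10.33), 1.85-fold higher. It was the 1 called gene of 29 in the bile acid list (median -0.076). Another Cyp7a1 probeset differed by only 0.28 between the means of the sides, without the treatment covariate. With the mean over its probesets the Cyp7a1 difference was 0.56, under 1.5-fold, so its call rests on the probeset chosen. Cyp8b1, which directs synthesis to cholic acid, stood at 10.71 to 11.64 in the high arrays and 11.25 to 12.22 in the low arrays, with a difference of -0.77 that did not meet the call. Cyp8b1 was named after its values were seen.

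In the list of fasting, gluconeogenesis and ketogenesis, Pdk4 was the 1 gene called of 26 (median -0.065). In the list of feeding and lipogenesis 1 of 22 was called, the phosphatidic acid enzyme Agpat2 (-0.66, SE 0.10), and the median was -0.12. An uncalled member of that list reached 0.82. In the list of insulin signalling and glucose metabolism 2 of 25 were called and lay in opposite directions: Irs1, an adaptor of the insulin receptor, was 1.79-fold lower, at 9.59 to 9.98 against 10.46 to 10.76, and Gys2, which builds glycogen, 1.73-fold higher, at 10.74 to 11.07 against 9.96 to 10.14. Uncalled members of that list had larger log2 differences, down to -1.29 and up to 1.27. In the list of NAD, one-carbon and polyamine metabolism Nampt was the 1 gene called of 26, in that of clock protein modifiers the 1 of 16, in that of drug metabolism Alas1 the 1 of 42, and in that of growth hormone and sex-biased genes Elovl3 the 1 of 21. The cell cycle list held 2 called of 24, Wee1 and Gadd45a.

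Several lists held no called gene. These were fatty acid oxidation (0 of 33, 24 of them lower and a median of -0.040, with Acot3 at 0.82 and Cpt1a at 0.37 as the largest absolute differences), cholesterol synthesis (0 of 17, Mvd at -0.61 and Stard4 at 0.41), and endoplasmic reticulum stress (0 of 26, Chac1 at 0.82 and Herpud1 at 0.47). The ribosome list (0 of 19, Rrp12 at -0.35 and Bop1 at -0.22), glucocorticoid targets (0 of 17), immediate early genes (0 of 21) and temperature-responsive genes (0 of 16) also held none. Of the temperature-responsive genes, 13 of 16 were lower, with a median of -0.15, led by Hspa1a (-0.54, SE 0.69) and Hspb1 (-0.48, SE 0.29), whose SE shows the spread within the sides. Hspa1a stood at 9.61 in control 5 and at 5.22 to 7.15 in the other low arrays, and without control 5 its difference was -0.17 and the median of the list -0.089. Among the immediate early genes Nr4a1 was at -1.15 (SE 0.57) and Socs3 at 1.02 (SE 0.40). Without control 6 they were at -0.71 and 0.27.

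**Figure D4:**
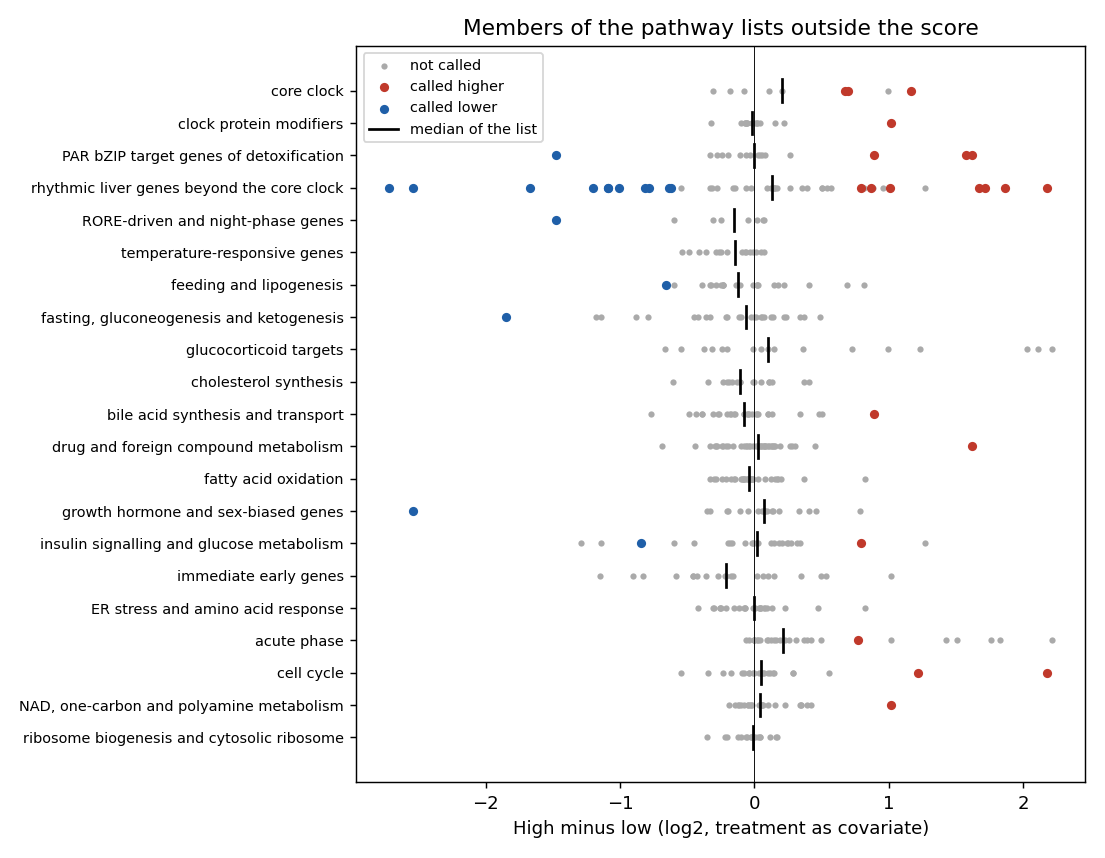
High minus low log2 difference of each measured member of the pathway lists outside the score (points), with called genes in colour and the median of each list as a bar; 1 list with a single such member is not drawn. The medians of the lists drawn lie between -0.21 and 0.21, and the list of rhythmic liver genes holds called genes on both sides, from Tubb2a at -2.71 to Wee1 at 2.17.

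Control 6 and control 5 stood apart in ways that touch these values. Control 6, on the high side, had acute phase genes at a mean of 1.21 above their average over the 10 arrays, against -0.24 to -0.03 in the other high arrays and -0.33 to 0.13 in the low arrays. Of 28 acute phase genes, 23 were higher on the high side (median 0.21), and without control 6 it was 16 (median 0.029). Lcn2, an iron-binding protein of inflammation, stood at 11.78 in control 6 and at 5.37 to 6.07 in the other high arrays, and its difference of 2.22 was 0.25 without control 6. The metallothionein gene Mt1 was at 2.11, or 1.17 without control 6. Steap4, a metalloreductase, was the 1 acute phase gene called (0.77), and its difference was 0.34 without control 6, under 1.5-fold. Control 5, on the low side, had a mean of immediate early genes of 1.52, against -0.44 to 0.14 in the other low arrays. With that mean as a covariate 73 genes were called higher and 103 lower, and 169 of the 171 called genes were called again.

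Markers of other liver cells were set beside these results, and in bulk samples fewer cells of a type and less RNA per cell cannot be told apart. Hepatocyte markers such as Alb and Ttr were measured (11 of 13), with levels of -0.049 to 0.12 in the high and -0.15 to 0.12 in the low arrays, relative to each gene's mean. All 13 Kupffer cell and macrophage markers had positive differences (median 0.19, or 0.11 without control 6), 0 were called, and the sides overlapped, at -0.073 to 0.38 against -0.29 to 0.21. All 4 neutrophil markers were higher with control 6 (median 0.40) and 1 of 4 without it (median -0.055). Endothelial markers were lower in 9 of 12 (median -0.077), and those of pericentral hepatocytes higher in 9 of 11 (median 0.071). Of the pericentral markers 1 was called higher, at 0.77, and no marker in the other cell type lists was called. For B cells 4 of 4 and for T and NK cells 7 of 7 were higher, with medians of 0.088 and 0.062. Medians were 0.045 for stellate cells (6 of 11 higher), -0.043 for bile duct cells (2 of 5), -0.0082 for periportal hepatocytes (4 of 9), 0.28 for red cells (1 of 2), -0.093 for pancreas (1 of 3) and 0.12 for fat tissue (1 of 1). The part of these cells in the differences was not tested. As a sign of RNA quality, the 3-prime minus 5-prime signal of Gapdh was -0.17 to -0.10 in the high and -0.15 to 0.013 in the low arrays, and that of beta-actin 0.87 to 0.93 and 0.86 to 1.02. Arrays correlated at 0.980 to 0.997 over genes.

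The difference between the sides was also taken within each treatment, which shares no array: penicillin 1, 5 and 6 against penicillin 2, 3 and 4, and control 6 against control 2, 4 and 5. By the call rule, all 75 genes called higher and all 96 called lower had the same sign in both. Of the genes called higher, 66 were at least 1.5-fold apart within penicillin and 72 within control, and of those called lower 86 and 79. The call chose these genes for a 1.5-fold difference over the same arrays. These counts therefore follow in part from the choice and are no separate support. The same share over all genes was not counted. The median absolute difference of the called genes was 0.79 within penicillin and 0.96 within control. Arntl, for example, was at -2.95 and -3.85, the latter against a level in control 6 (4.55) under the limit for dim probesets. Dbp was at 3.50 and 4.53, Wee1 at 2.07 and 2.37, Elovl3 at -2.07 and -3.50, and Mfsd2a at 1.23 and 2.54. Nrep (1.62 and 0.99) and Pdk4 (-2.12 and -1.32) were farther apart within penicillin. Over all genes outside the score the within-treatment differences correlated at r = 0.51, across genes, which are not independent replicates. The control value rests on the single array of control 6.

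**Figure D5:**
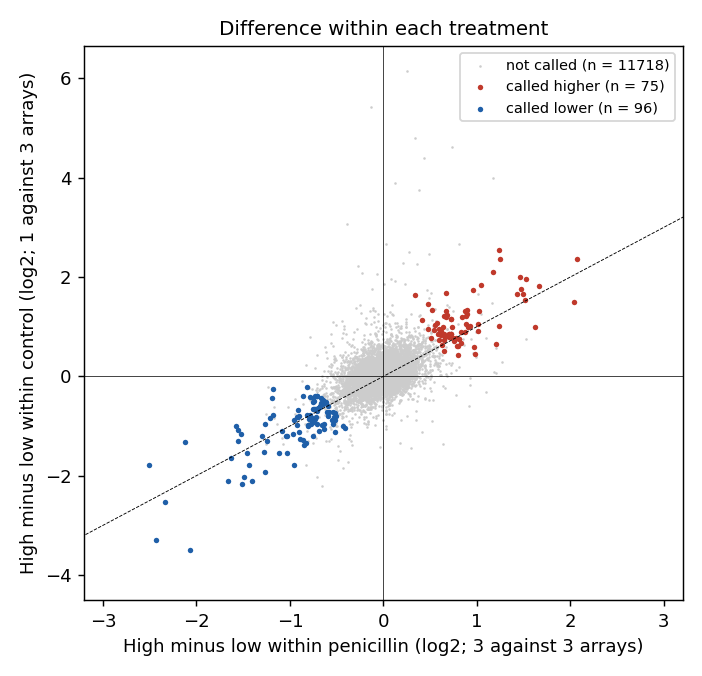
High minus low log2 difference of each gene outside the score within penicillin (horizontal, 3 against 3 arrays) and within control (vertical, 1 against 3), with called genes in colour and the line of equality dashed. Called genes lie in the quadrants of equal sign by the call rule, with a median absolute difference of 0.79 within penicillin and 0.96 within control; uncalled genes far up the vertical axis, such as Lcn2, stood high in control 6.

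Control 1 and control 3, which the score placed between the sides, were not between them for many genes. Of the 75 genes called higher, both arrays reached the range of the high side for 14 and that of the low side for 32. Alas1 (12.39 and 12.41), Coq10b (10.12 and 10.18) and Mfsd2a (9.49 and 9.39) stood with the high side, and so did Rgs16 (8.65 and 8.74) and Bhlhe40 (11.07 and 10.94). Nampt (8.42 and 8.34), Nmrk1 (7.26 and 7.14), Lonrf1 (7.28 and 7.30), Cyp7a1 (9.94 and 9.98) and Cry2 stood with the low side. Of the 96 genes called lower, both arrays lay with the high side for 23 and with the low side for 20. Lrfn3 (5.66 and 5.68) and Denn2b (7.97 and 8.05) lay with the high side, and Chka (9.55 and 9.48) with the low side. These arrays also had the highest immediate early genes, at 2.23 and 2.27 on the scale used for control 5 above, and the part of this in their levels was not tested.

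By a rule fixed in the design, the genes most like Dbp over the 12 arrays were taken as those with the highest Pearson correlation outside the score. They were the fructose transporter Slc2a5 (r = 0.97), Nr1d2 (r = 0.94), Gpcpd1 (r = 0.94), Narf (r = 0.94) and Gys2 (r = 0.92). The most opposed were Leo1 (r = -0.99), Lnx2 (r = -0.97), the RNA-binding protein gene Larp1 (r = -0.96), Spsb3 (r = -0.96) and Clpx (r = -0.95). Slc2a5 stood at 6.98, 6.98, 7.13 and 7.07 in the high arrays, 6.85 and 6.79 in the left-out arrays and 6.19 to 6.47 in the low arrays. Larp1 (-0.34) and Spsb3 (-0.45) were under 1.5-fold and so not called. These values rest on the same 12 arrays, most of which fall into separate sides, and describe likeness only.

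Treatment comes from the labels and could be tested. The clock score was 0.50 ± 2.24 in penicillin and -0.50 ± 2.00 in control arrays (SD, n = 6), a difference of 0.99 that was smaller than the spread within either group (two-sided exact permutation test over 924 assignments, p = 0.42). With the clock side held fixed over the 10 arrays, limma called 0 of 11899 genes between penicillin and control (0%, smallest adjusted p = 0.506), and 818 genes (6.87%) had an unadjusted p under 0.05. In the same arrays without the clock side 0 genes passed (smallest adjusted p = 0.894) and 630 had an unadjusted p under 0.05. The genes with the smallest p, none of which passed (limma adjusted p = 0.506 for each), were Vwa8 (0.44, SE 0.07), the acetyltransferase family gene Nat8f5 (0.58, SE 0.09) and the major urinary protein gene Mup10 (0.45, SE 0.09) on the higher side. On the lower side they were the apoptosis regulator Pawr (-0.46, SE 0.08), the macrophage scavenger receptor Cd163 (-0.48, SE 0.09) and Syne4 (-0.58, SE 0.11). With the score as a number over all 12 arrays the smallest adjusted p was 0.0726, again with 0 genes passing.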

How the data were processed

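The authors made probeset intensities with RMA, per the submitters' processing notes. These deposited intensities were linear and already normalized, so only log2 was taken here. The sources used here do not give software or settings. The table held 45101 probesets, 64 of them controls. The platform annotation gave 1 gene for 34945 of the rest, several for 932 (not used for naming) and none for 9160. Symbols were updated through RefSeq (GRCm38.p6), where 18032 gene identifiers were found and 162 were not. Probesets whose mean was under the median of all (4.73 on the log2 scale) were left out, and the brightest probeset stood for a gene, giving 11899 genes. Of 39 other probesets of 29 named genes that were called, 0 differed in sign, though sizes differed. Levels of different probesets cannot be set against each other, and near-identical genes can share probes.

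Fits used limma 3.58.1 in R 4.3.3 with side and treatment as terms over 10 arrays. The call rule is given with the results, and the treatment term was tested two-sided with Benjamini-Hochberg adjustment at 0.05. The number of arrays limits the precision. Both tests were run on simulated data. Genes named were the 15 called genes with the largest difference in each direction, clock and PAR bZIP list members, the 3 largest called genes of each other list (2 largest where none was called), the 5 genes most like and most unlike Dbp, and the 3 with the smallest treatment p in each direction. The arrays, the lists (22 of pathways and 13 of cell types; 534 of 640 genes measured) and these rules were chosen with earlier results of these data known. Alternatives were other filters, probeset rules, normalizations, covariates, folds and the omission of arrays.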

Additional observations from a re-analysis of the deposited data

Results flagged for a closer look

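In 202 groups of arrays tested (the 4 high or 6 low arrays, for each gene named for the comparison of sides and each list), 14 held an array that lay far from the others by Dixon's criterion, and chance gives about 1 in 20. On the high side, Denn2b stood highest in penicillin 5 (8.12), Lonrf1 in penicillin 6 (9.25) and Lcn2 in control 6 (11.78). Leo1 was lowest in control 6 (6.72), within a range of the high arrays that was very narrow, and Upp2 in penicillin 5 (12.10). The acute phase list was highest in control 6 (1.21), B cell markers in penicillin 5 (0.32) and T and NK cell markers in penicillin 6 (0.59). On the low side, Tipin (7.09) and Tjp3 (7.23) were lowest in control 5, and Tubb2a was highest in control 4 (11.78). The lists of glucocorticoid targets (0.47) and immediate early genes (1.52) were highest in control 5, and T and NK cell markers in control 2 (0.19).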

How the results depend on the processing

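The counts of called genes stayed within 1.5 times of 75 higher and 96 lower under other filters, probeset rules and normalizations, without the treatment covariate, with the immediate early score and within penicillin arrays (99 and 134). Without each array in turn they ran from 79 to 102 higher and from 90 to 139 lower. Without control 6 the fit gives the within-penicillin differences, and 152 of the 171 genes were called again. Of the settings that moved a count, at least 2-fold gave 23 higher and 33 lower, a lower fold limit 192 and 216, and fold alone 142 and 158. Within control arrays, where control 6 stands alone, 389 were called higher and 249 lower. With control 1 and control 3 on the low side 59 were called higher and 58 lower. With the replicate number as a block the calls were 92 higher and 54 lower, of which 100 are among the 171, because the sides then differ only within number 5, that of control 5. Deviations from the treatment means correlated at -0.26 to 0.39 between same-numbered arrays, over 0.1 in 4 of 6 pairs. By these deviations 3 of 6 controls fitted their own number best. These values do not settle whether the numbers mark pairs, so the block is given as an alternative only. The block gave 0 genes for treatment (577 at an unadjusted p under 0.05, smallest adjusted p = 0.138).

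The treatment test called 0 genes under each alternative run (smallest adjusted p from 0.0726 to 0.968). Without each array in turn it also gave 0. The score difference between treatments ran from 0.54 to 1.60 without each array (exact permutation p from 0.197 to 0.671). In the paired sign flips by replicate number it was 0.99 (exact p = 0.281). Of 1450 values of named genes under alternatives 70 moved by more than the spread within a side, and of 484 list medians 24 did; no called gene changed sign.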

Other observations

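Of the 171 called genes 140 were in none of the pathway lists. The following were picked after their values were seen. Among those higher in the Dbp-high arrays were the phosphate transporter Slc20a1 (1.12), which stood at 9.73 and 9.70 in control 1 and control 3, above all high arrays (8.97 to 9.34), the vitamin transporter Slc5a6 (1.04), tissue factor F3 (0.99), the drug exporter Abcb1a (0.72) and the corticosteroid-binding globulin gene Serpina6 (0.64). Among those lower were the noncoding RNA Neat1 (-1.27), the receptor kinase Grk5 (-1.40), the glycine cleavage enzyme Gldc (-1.23), the coenzyme Q synthesis factor Coq8a (-1.26), the glutathione synthesis enzyme Gclc (-0.72) and the folate enzyme Fpgs (-0.93). Depp1, also called lower, was at 9.30 and 9.23 in control 1 and control 3, under all high arrays. The glucocorticoid target Fkbp5 was higher by 1.23 without meeting the call, at 7.89 to 9.49 in the high arrays and 7.25 to 8.28 in the low arrays.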
